A study of Rattus norvegicus with 45 samples.

Results

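The 10 genes described here encode the cargo, the processing enzymes and an assembly factor of the dense-core vesicle: Chga, Chgb, Scg2, Scg3, Vgf, Pcsk1, Pcsk2, Cpe, Scg5 and Hid1. They are 10 of the 40643 genes in the count tables of both sexes. The list was drawn up with earlier results of these libraries known. Hid1 was chosen by its p-value, being among the genes with the lowest p in BPA-exposed against oil-exposed males, where it ranked 5, and the other 9 were added because they belong to the same pathway. Differences between BPA and oil in males are therefore given as a description, without a test.

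Transcripts of the medial preoptic area in the hypothalamus were counted by 3' Tag-seq in 45 rat pups at postnatal day 10. The study compared prenatal bisphenol exposures and examined whether maternal licking/grooming and nest attendance on postnatal days 1 to 5 moderated their effects, and its title names Esrrg, the gene for estrogen-related receptor gamma. Dams were dosed from gestational day 8 to birth on day 21 or 22. Exposure to 50 µg/kg bisphenol A (BPA 50) gave 6 female and 5 male libraries. A mixture of BPA, bisphenol S and bisphenol F in equal parts (Mixed BP) gave 6 female and 6 male libraries at 50 µg/kg and 5 female and 6 male libraries at 150 µg/kg. Corn oil, the vehicle, gave 5 female and 6 male libraries. No strain, transgene or other treatment is given for any group. The libraries came from 24 litters, 6 per exposure, and 21 litters gave a library of each sex.

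Dense-core vesicles store neuropeptides and peptide hormones. They bud from the trans-Golgi network filled with granins, acidic proteins that aggregate with the other cargo, and peptides are cut from their precursors inside the maturing vesicle by prohormone convertases and then trimmed by carboxypeptidase E. In the hypothalamus this route supplies the peptides that neurons use to signal to each other and to the pituitary.

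RefSeq promoter windows, 250 bases before to 50 bases from the annotated start in build GRCr8, were at hand for 7 of the 10 members and not for Hid1, Chga and Pcsk1. The windows of Scg2, Vgf and Pcsk2 are printed as examples. The first 2 genes moved together across libraries, as did Chgb and Scg3, and the third moved against them (results follow). Capitals mark TGACGTCA, the cyclic AMP response element, and in Pcsk2 the shorter CGTCA. The windows lie at chr9:88256817-88257116 on the minus strand for Scg2, at chr12:25276971-25277270 on the minus strand for Vgf and at chr3:151333688-151333987 on the plus strand for Pcsk2, and each reads 5′ to 3′ along its gene.
Scg2: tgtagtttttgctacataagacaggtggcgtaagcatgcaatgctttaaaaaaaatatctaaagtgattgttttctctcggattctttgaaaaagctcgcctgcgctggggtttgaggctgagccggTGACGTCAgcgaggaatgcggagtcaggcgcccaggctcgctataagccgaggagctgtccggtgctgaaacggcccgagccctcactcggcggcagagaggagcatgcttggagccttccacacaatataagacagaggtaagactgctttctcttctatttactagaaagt
Vgf: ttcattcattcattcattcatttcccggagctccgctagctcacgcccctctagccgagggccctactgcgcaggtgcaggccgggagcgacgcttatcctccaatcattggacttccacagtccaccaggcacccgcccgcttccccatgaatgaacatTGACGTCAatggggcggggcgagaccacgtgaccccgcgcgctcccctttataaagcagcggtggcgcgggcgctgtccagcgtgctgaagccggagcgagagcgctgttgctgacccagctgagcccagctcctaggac
Pcsk2: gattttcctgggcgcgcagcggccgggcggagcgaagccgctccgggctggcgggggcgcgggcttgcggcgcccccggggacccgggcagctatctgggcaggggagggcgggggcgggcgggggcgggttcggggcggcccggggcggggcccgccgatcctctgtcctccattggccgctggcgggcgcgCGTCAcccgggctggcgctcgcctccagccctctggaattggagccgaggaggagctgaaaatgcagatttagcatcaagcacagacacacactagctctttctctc

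TGACGTCA, which reads the same on both strands, began 123 bases before the start in Scg2 and 90 bases before it in Vgf, and was found in 2 of the 7 windows. Of all 33469 windows of the same length, 612 (1.83%) held it. The windows of Chgb and Scg3 did not hold it. Their Pearson's r with Scg2 was 0.79 and 0.84 in females, where that of Vgf was 0.77. In males it was 0.77 and 0.79, where that of Vgf was 0.72. A link between the motif and the levels was not tested. The shorter TGACG, searched on both strands (CGTCA on the other) and contained in the longer motif, was found in 6 of the 7 windows, against 21.2% of all windows; Chgb was the member without it. In Pcsk2 it began 57 bases before the start. The Pcsk2 window was 73.3% G and C, the Scg2 window 50.0% and the Vgf window 62.7%. A match describes the letters in this window and says nothing of binding.

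Totals ran from 4397460 to 7223180 counts in female libraries and from 4747461 to 6740045 in male libraries, and all 10 members passed the filter on low counts among 18354 genes tested in females and 18426 in males. No gene of the whole table passed the Benjamini-Hochberg threshold of 0.05 in edgeR's quasi-likelihood test, or in DESeq2, for any exposure in either sex. Below, the share of all tested genes with an unadjusted p under 0.05 therefore stands beside each count of members from a fit without a marker term. Levels are CPM, counts scaled to library size with TMM factors within a sex. They are not per length and compare libraries, not genes. In tissue pieces, fewer cells of a type and less RNA per cell cannot be told apart. The label was checked with 16 preoptic and hypothalamic markers: Esr1, the estrogen receptor alpha gene, had 45 to 101 counts in females and 49 to 90 in males, while Hmx3 and Otp were at 0 in every library, Six6 had 0 to 2 counts, and Gal had 0 to 13. Among pituitary markers, Prl and Fshb had 0 or 1 count, and Tshb and Cga at most 7 and 3 in females and 7 and 10 in males. Pomc, which hypothalamic neurons also express, had 3 to 16 counts in females and 1 to 93 in males, Gh1 0 to 17 and 0 to 40, and Lhb 1 to 22 and 2 to 22. Markers of striatum, a neighbouring forebrain region, were present in every library and varied widely: the summed CPM of 12 such genes, Drd1 and Drd2 among them, ran from 1089 to 2687 in females and from 842 to 2905 in males.

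Levels were steadiest for Cpe, the carboxypeptidase that removes basic residues left by the convertases, with a coefficient of variation over libraries of 4.32% in females and 5.78% in males. Scg5, the chaperone that keeps the Pcsk2 enzyme inactive until it reaches the vesicle, followed with 6.38% and 6.15%. Among the granins, Scg3 varied by 8.35% and 8.73% and Chgb by 8.46% and 11.4%, while Scg2 reached 15.7% and 22.6%. Chga varied by 15.5% and 17.4%, Pcsk2 by 15.4% and 27.2%, and Hid1 by 20.4% and 20.1%. Pcsk1 had the highest values, 29.7% and 43.8%, but averaged 27.3 and 28.1 counts per library, for which counting error by itself gives 19.1% and 18.9%. Copies made by PCR are left out of these counting errors.

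**Figure D1:**
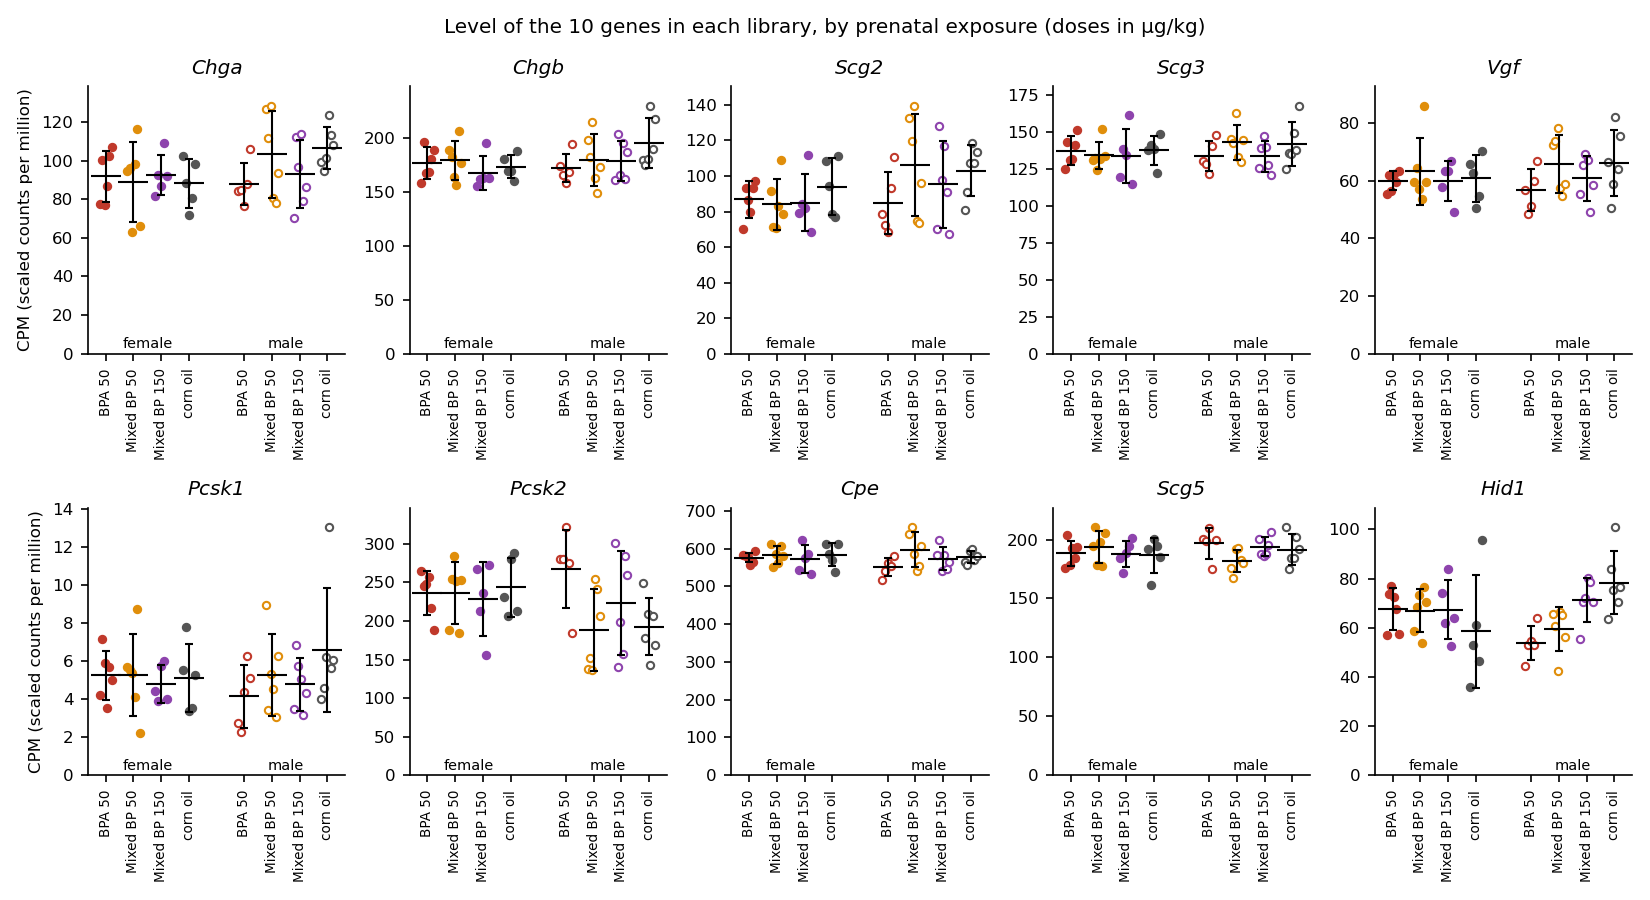
CPM of the 10 genes in each library, by exposure, with females (filled) left of males (open) in each panel; bars are mean ± SD. The male BPA 50 libraries sit low for Hid1 (44.5 to 64.0) and, except for 1 of 5, high for Pcsk2 (184 to 322), and the female corn oil libraries are the most spread for Hid1 (35.9 to 95.8).

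Chga, the gene of chromogranin A, whose product promotes vesicle formation and is itself a precursor of peptides, had 76.7, 84.3, 84.6, 88.1 and 106 CPM in BPA males. In oil males it ran from 94.4 through a median of 105 to 124. Only the highest BPA library lay within the oil range, and the fitted log2 difference was -0.28 ± 0.14 (SE). Mixed BP males ran from 77.8 through 103 to 128 CPM at 50 µg/kg and from 70.2 through 91.4 to 114 at 150 µg/kg. Both ranges overlapped that of oil, with log2 differences of -0.05 ± 0.13 and -0.19 ± 0.13.

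Scg2, the gene of secretogranin II and precursor of secretoneurin, had 68.7, 72.4, 78.9, 93.2 and 111 CPM in BPA males, against 81.1 to 118 CPM with a median of 107 in oil males. The BPA libraries lay lower as a group but overlapped oil, with a log2 difference of -0.28 ± 0.19. Scg2 split the Mixed BP males: at 50 µg/kg the libraries ran from 73.6 through 108 to 139 CPM, at 150 µg/kg from 67.3 through 94.4 to 128, so that each group reached both below and above the oil range. Their differences from oil were 0.04 ± 0.18 and -0.11 ± 0.18.

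Vgf, a precursor of several neuroendocrine peptides first found as a gene induced by nerve growth factor, had 48.5, 51.1, 56.8, 59.9 and 66.7 CPM in BPA males, against 50.4 to 81.9 CPM with a median of 65.3 in oil males. The log2 difference was -0.22 ± 0.12 and the ranges overlapped. Chgb, a granin close to Chga, differed by -0.18 ± 0.09, with 158, 166, 169, 173 and 194 CPM in BPA males, against 175 to 229 with a median of 185 in oil males. Scg3, which tethers granin aggregates to the vesicle membrane, differed by -0.08 ± 0.07. In both mixture groups of males, Chgb, Scg3 and Vgf lay between -0.12 and 0.01 on the log2 scale.

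Of the convertases, Pcsk2, which makes many of the final cuts in neuropeptide precursors, was higher in BPA males, with 184, 275, 279.8, 279.9 and 322 CPM, against 143 to 249 CPM with a median of 193 in oil males. All but 1 of the BPA libraries lay above the highest oil library, and the log2 difference was 0.47 ± 0.22. Pcsk1, the convertase that acts earlier in the vesicle, went the other way: 2.26, 2.74, 4.40, 5.13 and 6.27 CPM in BPA males, against 4.01 to 13.1 CPM with a median of 5.83 in oil males, a log2 difference of -0.66 ± 0.32. These values rest on 13 to 32 counts per BPA library and 24 to 62 per oil library, and 1 oil library, replicate 4, gave the 13.1: without it the difference was -0.36. The processing partners lay close to 0, with log2 differences of -0.07 ± 0.05 for Cpe and 0.04 ± 0.06 for Scg5.

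In Mixed BP males both convertases overlapped oil. Pcsk2 differed from oil by -0.03 ± 0.21 at 50 µg/kg and 0.21 ± 0.21 at 150 µg/kg, with libraries from 137 through 179 to 255 CPM and from 141 through 229 to 301. Pcsk1 differed by -0.31 ± 0.29 and -0.43 ± 0.29, with libraries from 3.04 to 8.99 and from 3.19 to 6.84 CPM, and by -0.02 and -0.13 without oil replicate 4. The intervals of all 4 differences include 0.

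Hid1 encodes a protein of the trans-Golgi network that is needed for dense-core vesicles to form and mature, as known from nematodes and mice. It had 44.5, 53.0, 53.1, 54.5 and 64.0 CPM in BPA males. At 50 µg/kg of Mixed BP its male libraries ran from 42.6 through 62.9 to 66.3 CPM, at 150 µg/kg from 55.2 through 71.5 to 80.1, and in oil from 63.4 through 75.9 to 101. The group means thus stood at 53.8 ± 6.93, 59.5 ± 9.11, 71.2 ± 8.83 and 78.4 ± 13 CPM (SD, n = 5, 6, 6 and 6). The highest BPA library lay just above the lowest oil library, and 3 of the mixture libraries at the lower dose also did so.

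In edgeR's quasi-likelihood fit, Hid1 in males was lower by -0.39 ± 0.11 (log2, SE) at 50 µg/kg of the mixture than in oil. This is given as a description, without a test. Apart from Hid1, no member had an unadjusted p under 0.05 there, where 3.47% of all tested genes had one. At 150 µg/kg the difference of Hid1 was -0.13 ± 0.11, and no other member had such a p, where 4.09% of genes did. Leaving out single libraries moved the difference of Hid1 at 50 µg/kg between -0.45 and -0.31. Both mixture comparisons use the same oil libraries as the BPA comparison in which Hid1 was chosen, so their values are not independent of that choice: the BPA value is -0.54 ± 0.12. In that comparison 11.3% of all genes had an unadjusted p under 0.05, and the members are described without a test.

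Between the exposures of males, which share the BPA libraries with the choice of Hid1, Hid1 was higher in the mixture than in BPA by 0.15 ± 0.12 at equal total dose and by 0.41 ± 0.12 at 150 µg/kg. Pcsk2 was lower by -0.51 ± 0.22 and -0.26 ± 0.22. The members are described in these comparisons without a test. The share of all genes with an unadjusted p under 0.05 was 12.4% at equal total dose and 4.30% at 150 µg/kg. Between the doses of the mixture, which the choice did not use, Hid1 was higher by 0.26 ± 0.11 at 150 than at 50 µg/kg (unadjusted p = 0.0305, adjusted p = 0.99 in edgeR) and was the 1 member of 10 with such a p, where 2.82% of genes had one.

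Taking the 10 genes as a list, 8 were lower in BPA males than in oil males with a median log2 difference of -0.20, where 50% of all genes were lower. In mixture males, 7 at 50 µg/kg and 8 at 150 µg/kg were lower, with medians of -0.04 and -0.11, where 49.2% of all genes were lower at each dose. In females 5, 4 and 7 members were lower in the same comparisons, where 50.3%, 48% and 49.1% of all genes were lower. The list holds Hid1, chosen in BPA males, and genes that varied together, so these are not 10 separate signs. The median over all genes of the table was 0.00 in the BPA comparison of males.

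**Figure D2:**
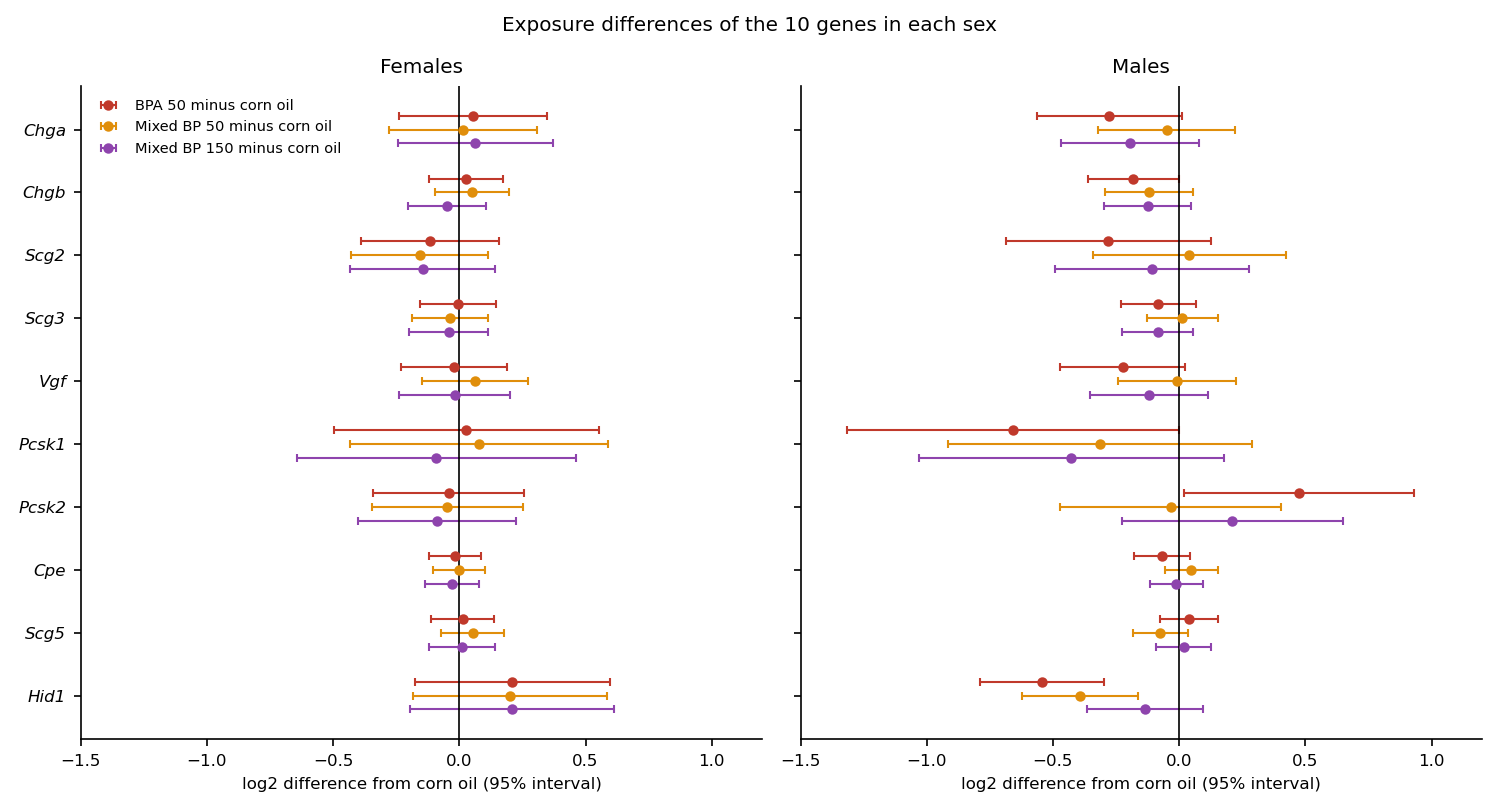
Log2 difference of each gene from corn oil in females (left) and males (right), with 95% intervals from the edgeR fit. In males Hid1 lies at -0.54 for BPA 50, -0.39 for Mixed BP 50 and -0.13 for Mixed BP 150, while in females all 3 lie between 0.20 and 0.21 with intervals across 0.

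None of the 10 genes passed the test against oil in females. The members with an unadjusted p under 0.05 were 0 of 10 for BPA (3.63% of all genes), 0 for the mixture at 50 µg/kg (4.85%) and 0 at 150 µg/kg (3.08%). Between exposures they were again 0 of 10, for the mixture against BPA at equal total dose (4.21% of genes), at 150 µg/kg (2.27%) and between the doses (4.72%). Medians over the members were 0.00, 0.03 and -0.04 for BPA and the lower and higher mixture dose against oil.

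Hid1 in females had 57.1 to 77.0 CPM with a median of 70.2 after BPA and 53.9 to 76.6 CPM with a median of 69.6 at 50 µg/kg of the mixture. At 150 µg/kg it had 52.7, 61.8, 64.1, 74.2 and 84.0 CPM, and in oil 35.9, 46.4, 53.1, 61.2 and 95.8 CPM. The oil libraries lay at both ends of the whole range, and the exposed groups fell inside them. The log2 differences from oil were 0.21 ± 0.18, 0.20 ± 0.18 and 0.21 ± 0.19. Single oil libraries moved them in both directions: they were 0.46, 0.45 and 0.46 without replicate 5, the oil library at 95.8 CPM, and 0.08, 0.07 and 0.07 without replicate 1, the one at 35.9 CPM. The male littermate of replicate 5, oil replicate 4, was also the highest male library for Hid1, at 101 CPM, and for Pcsk1.

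Pcsk2 in females had 188 to 264 CPM with a median of 246 after BPA, 184 to 284 with a median of 252 and then 155, 212, 236, 267 and 273 CPM at the lower and higher mixture dose, and 206, 213, 231, 280.1 and 288 CPM in oil. Scg2 had 70.3 to 97.5 CPM with a median of 89.9 after BPA, 70.8 to 109 with a median of 80.8 and then 68.3, 79.3, 81.8, 84.0 and 112 CPM in the mixture, and 77.0, 78.7, 94.5, 108 and 111 CPM in oil. Both genes overlapped oil in every exposure. Scg2 was the granin furthest from oil, by -0.12 ± 0.13, -0.16 ± 0.13 and -0.15 ± 0.14 on the log2 scale.

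The exposure effect on Hid1 was compared between the sexes in the fit of all 45 libraries, whose SEs and p-values take littermates as independent. The log2 difference of Hid1 from oil was higher in females than in males by 0.75 ± 0.22 for BPA, by 0.59 ± 0.22 for the mixture at 50 µg/kg and by 0.34 ± 0.22 at 150 µg/kg. The first contains the contrast that chose Hid1 and the other two share its male oil libraries, so they are given as a description, without a test. Apart from Hid1, 0 of the other 9 members had an unadjusted p under 0.05 for BPA (7.12% of genes), the lower mixture dose (4.79%) or the higher one (3.79%). Without female oil replicate 1 the values for Hid1 were 0.62, 0.46 and 0.21. Without the litter that held the highest oil library of each sex the 3 values were 0.92 ± 0.19, 0.76 ± 0.18 and 0.51 ± 0.18. Averaged over exposures, none of the 10 passed between females and males: 0 had an unadjusted p under 0.05, where 5.19% of genes did. The values ranged from -0.15 ± 0.08 for Scg2 to 0.13 ± 0.09 for Pcsk2, and Hid1 stood at 0.00 ± 0.08.

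None of the 10 genes passed on either measure of maternal care. Per 1 SD of licking/grooming, with exposure in the model, Hid1 in females was lower by -0.14 ± 0.06 (log2; unadjusted p = 0.0214, adjusted p = 1 in edgeR), the only member of 10 with such a p, where 2.76% of genes had one. Without oil replicate 5 the slope was -0.06. In males the slope of Hid1 was 0.00 ± 0.04 and 0 of 10 members had such a p (4.45% of genes). For nest attendance the counts were 0 of 10 in females (3.17%) and 0 of 10 in males (2.29%).

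Whether exposure altered the slope on licking/grooming was tested jointly over the 3 exposures. In females 2 of 10 members, Scg3 and Vgf, had an unadjusted p under 0.05, where 6.31% of genes had one. These genes varied together (r = 0.73 in females), so they are not separate results. Replicate 5 at 50 µg/kg of the mixture, flagged below for both, had the lowest licking/grooming of its group. Without replicate 1 at 150 µg/kg, also lowest in its group, the genes called in the whole table went from 0 to 7. Values of the members without single libraries are not given for this test. For Scg3 the oil slope was -0.07, and the slope at 150 µg/kg of the mixture was higher than that by 0.19 ± 0.06 (joint unadjusted p = 0.0148, adjusted p = 0.757). For Vgf the oil slope was -0.08, with 0.16 ± 0.08 at that dose and -0.11 ± 0.08 at 50 µg/kg (joint unadjusted p = 0.0155, adjusted p = 0.762). In males there were 0 of 10 (4.76%), and for nest attendance 0 of 10 in females (3.01%) and 0 of 10 in males (1.93%).

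The granin genes rose and fell together from library to library. After the exposure means were removed, the 10 pairs among Chga, Chgb, Scg2, Scg3 and Vgf had Pearson's r from 0.61 to 0.84 over the 22 female libraries and from 0.69 to 0.91 over the 23 male libraries, and Spearman's rho from 0.65 to 0.79 and from 0.74 to 0.90. All 10 pairs passed in each sex (two-sided permutation tests of 100000 resamples, adjusted over the 90 pairs of both sexes; adjusted p from 0.000129 to 0.0151 in females and to 0.00223 in males). Without the 2 libraries farthest from the median, r stayed between 0.59 and 0.76 in females and between 0.65 and 0.89 in males. Scg2 was tightly tied to Scg3 in females (r = 0.84, rho = 0.79) and to Chga in males (r = 0.91, rho = 0.90).

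Pcsk2 ran against all 5, with r from -0.88 to -0.69 in females and from -0.92 to -0.73 in males (rho from -0.93 to -0.74 and from -0.92 to -0.74; adjusted permutation p at most 0.00235). Pcsk1 went with the granins instead, with r from 0.45 to 0.59 and from 0.54 to 0.60, 5 of 5 pairs passing in each sex. Cpe passed with 3 of the 5 in females and 4 in males. Hid1 passed with none of the other 9 genes in either sex, with r from -0.20 to 0.22 in females and from -0.40 to 0.36 in males, and Scg5 with none. By Spearman's rho the counts were 3 in females and 5 in males for Pcsk1, 4 and 2 for Cpe, 0 and 0 for Hid1, and 0 and 2 for Scg5. In all, 52 of the 90 pairs passed, and 24 pairs did so in both sexes with the same sign.

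**Figure D3:**
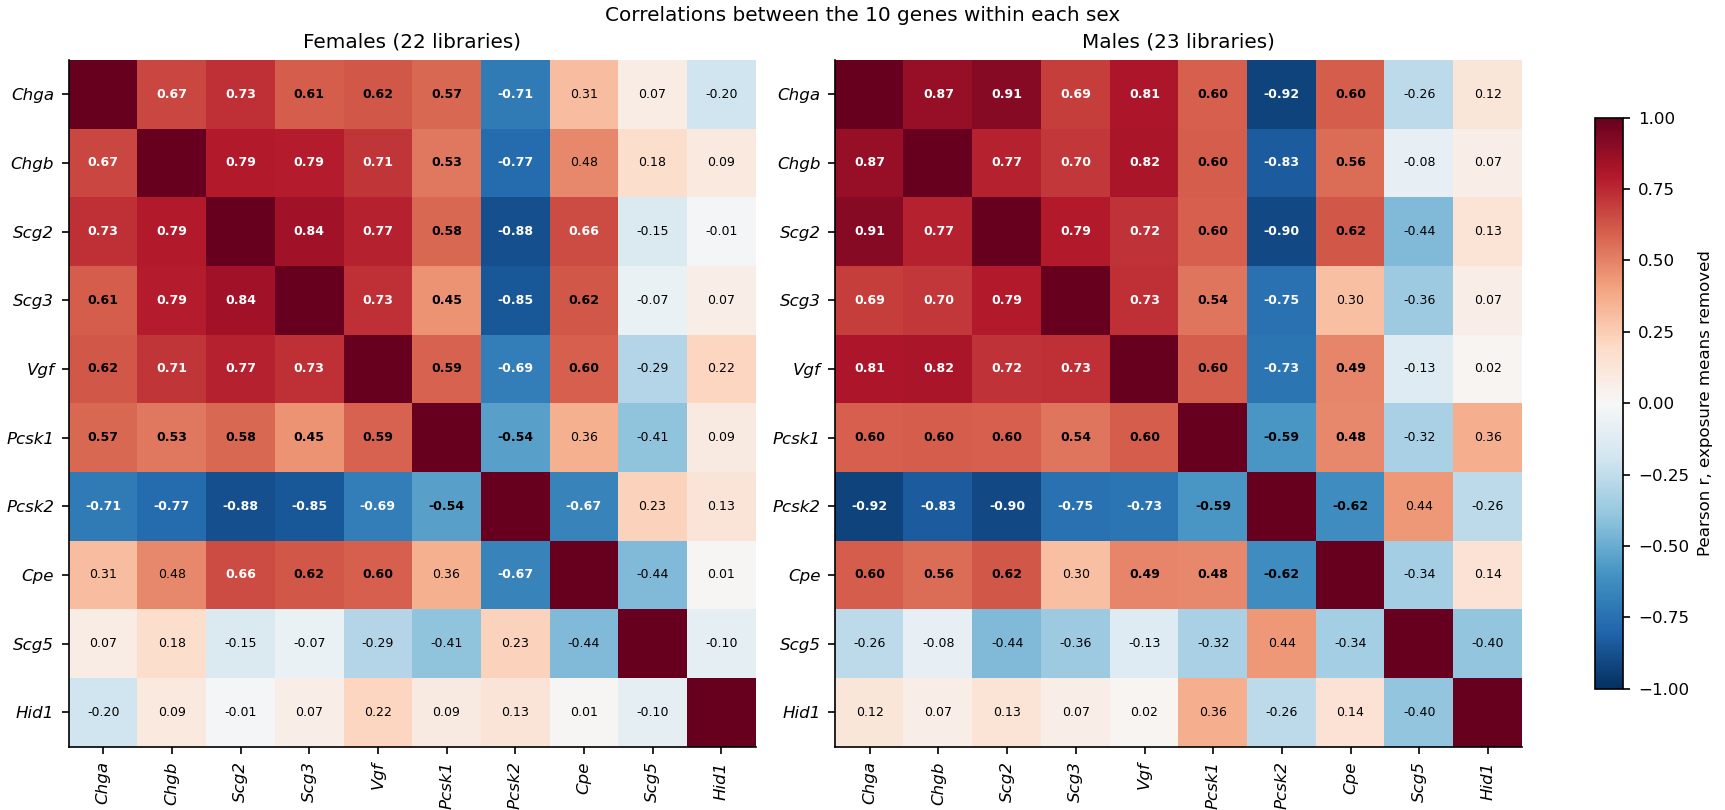
Pearson's r between the 10 genes over libraries after exposure means were removed, females left and males right, bold where the permutation p adjusted over 90 pairs was under 0.05. The 5 granin genes form a positive block (0.61 to 0.84 in females, 0.69 to 0.91 in males), Pcsk2 is negative with each of them, and Hid1 and Scg5 stand apart.

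Markers of neurons, of striatum and of glia moved with the same genes. Over libraries, with exposure means removed, Pcsk2 had r = 0.93 with the mean log2 level of the 12 striatal markers in females and 0.94 in males (rho = 0.87 and 0.91), and r = -0.94 and -0.91 with the mean of 14 neuron markers (rho = -0.93 and -0.90). The mean does not stand for every neuron marker: Syt1, which is in that list, rose with Esrrg in both sexes, as Pcsk2 did (slopes below). What the neuron mean measures in these pieces was not tested. Scg2 had r = -0.81 and -0.91 with the striatal markers (rho = -0.79 and -0.92) and r = 0.91 and 0.96 with the neuron markers (rho = 0.90 and 0.95). Chga had r = 0.89 and 0.88 with the 10 tested preoptic markers (rho = 0.88 and 0.89). In males the astrocyte marker mean had r = 0.88 with Chga, 0.87 with Scg2 and -0.86 with Pcsk2 (rho = 0.87, 0.90 and -0.84), and the oligodendrocyte mean 0.82, 0.82 and -0.75 (rho = 0.83, 0.86 and -0.75). In females, of these glial pairs, only Scg2 with astrocyte markers passed (r = 0.57, rho = 0.49; permutation, adjusted p = 0.0412, and 0.0803 by rho). Pericyte and fibroblast markers passed there with Pcsk2 (r = 0.67, rho = 0.73), Chga (-0.62, rho = -0.62) and Scg2 (-0.61, rho = -0.58), with adjusted permutation p from 0.0134 to 0.0255. These pairs were among 82 of 220 that passed in this family (permutation, adjusted p from 0.000116 to 0.0011 for the neuron, striatal, preoptic and male glial pairs named), while Hid1 had r = 0.13 in females and -0.31 in males with the striatal markers (adjusted p = 0.626 and 0.29). With the neuron marker mean removed, 0 of the 90 pairs between members passed. The pairs among Chga, Chgb, Scg2, Scg3 and Vgf then had r from -0.51 to 0.36 in females and from -0.20 to 0.64 in males. Those of Pcsk2 with these 5 genes ran from -0.22 to 0.45 and from -0.56 to -0.01.

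**Figure D4:**
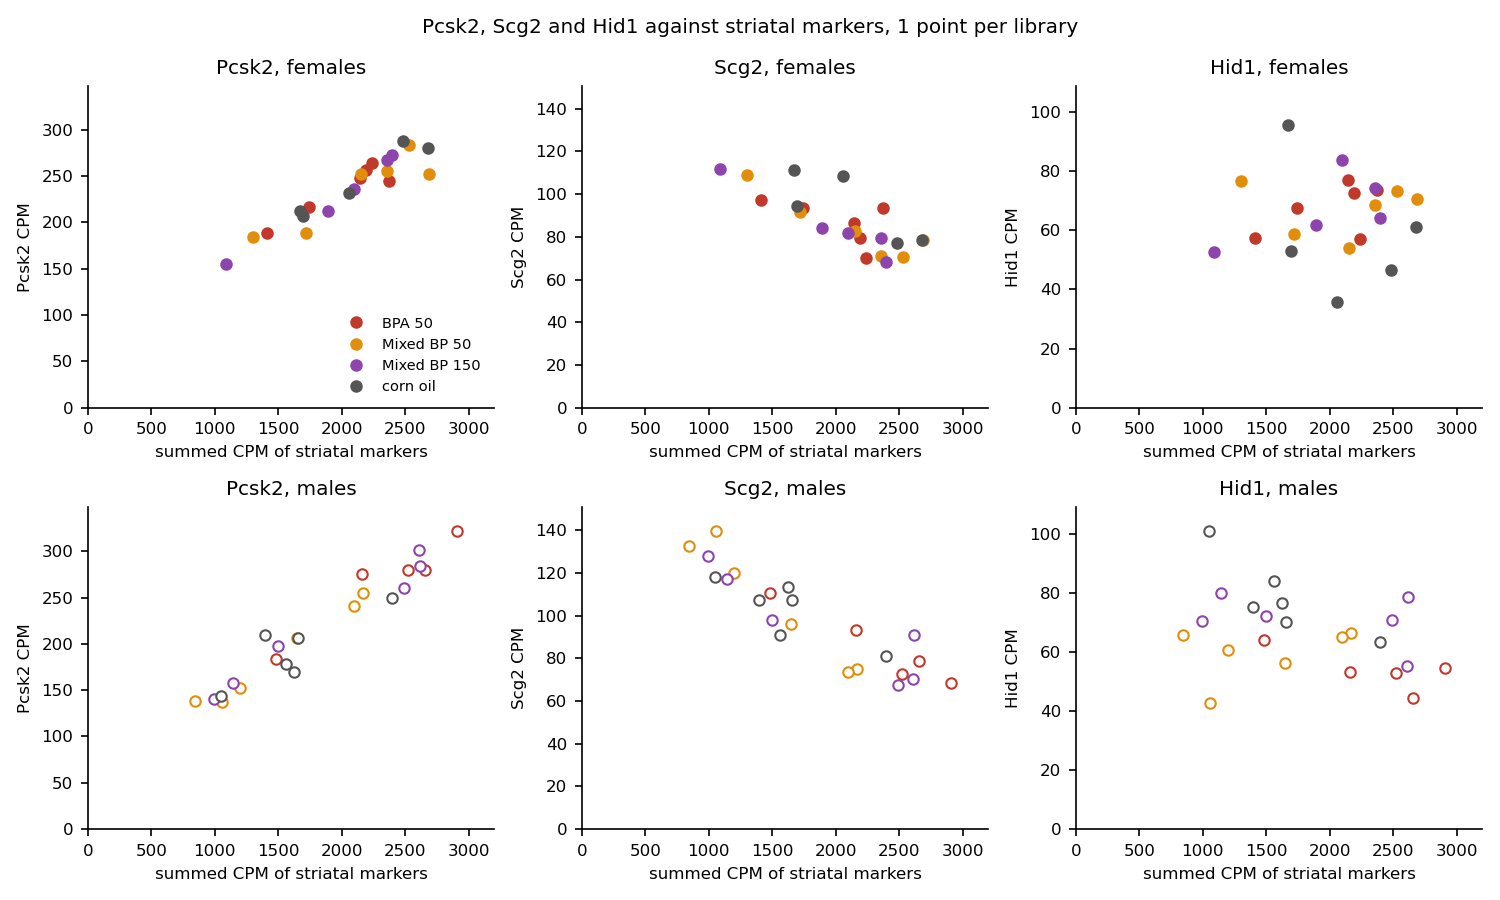
CPM of Pcsk2, Scg2 and Hid1 against the summed CPM of 12 striatal markers, 1 point per library, females above males. Pcsk2 rises and Scg2 falls along the marker axis in both sexes, and Hid1 has r = 0.13 in females and -0.31 in males with the mean log2 level of these markers.

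The same markers differed between the groups of males. The striatal sum averaged 2346 CPM in BPA males (1486 to 2905) and 1615 in oil males (1051 to 2399), and all 12 striatal genes were higher in BPA males with a median log2 difference of 0.56. The neuron sum averaged 5693 and 6261 CPM, and the sum of the 10 tested preoptic markers 102 and 126 CPM. In mixture males the striatal sum averaged 1500 CPM at 50 µg/kg and 1891 at 150 µg/kg. With the neuron or the striatal marker mean in the fit, the BPA difference of Pcsk2 in males was 0.15 ± 0.10 or 0.13 ± 0.08, that of Scg2 0.02 ± 0.06 or 0.00 ± 0.08, that of Pcsk1 -0.27 ± 0.25 or -0.25 ± 0.24, and the median of the 10 genes -0.04 or -0.05. Hid1 stood at -0.50 ± 0.13 or -0.47 ± 0.13 for BPA, and at -0.39 ± 0.12 or -0.40 ± 0.11 for the mixture at 50 µg/kg.

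Marker terms moved other comparisons as well. For the mixture at 50 µg/kg against BPA in males, Pcsk2 stood at -0.16 ± 0.10 with the neuron term and -0.08 ± 0.08 with the striatal term, against -0.51 without one. The median of the 10 genes was -0.05 or -0.06, against 0.13. For that mixture dose against oil in males, Hid1 aside, Chgb had an unadjusted p under 0.05 with the neuron term (edgeR). With the striatal term Chgb, Chga and Pcsk1 had one, and without a marker term none of them did. The share of all genes with such a p is not given for fits with a marker term, so nothing is read from how many members had one. With the striatal term Chga stood at -0.14 ± 0.06, Chgb at -0.16 ± 0.06 and Pcsk1 at -0.43 ± 0.20. At 150 µg/kg Chga alone had such a p, with the striatal term (-0.15 ± 0.06).

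In females 0 members had such a p against oil without a marker term. With the neuron term Pcsk2 had one in every exposure, at -0.13 ± 0.06 for BPA, -0.14 ± 0.06 for the mixture at 50 µg/kg and -0.18 ± 0.06 at 150 µg/kg (unadjusted p = 0.0295, 0.0197 and 0.00447 in edgeR). With the striatal term Pcsk2 stood at 0.01, -0.05 and 0.01, and Scg2 had such a p at both mixture doses, at -0.16 ± 0.07 and -0.25 ± 0.08 (unadjusted p = 0.0357 and 0.00397). Between the doses Chgb had one with the striatal term (-0.14 ± 0.06, unadjusted p = 0.0228). The share of all genes with such a p is again not given for these fits, so nothing is read from how many members had one. None of the 10 genes passed in any exposure comparison of either sex with a marker term, after adjustment over all genes. What part the makeup of the tissue pieces had in these differences, that of Hid1 included, was not tested.

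**Figure D5:**
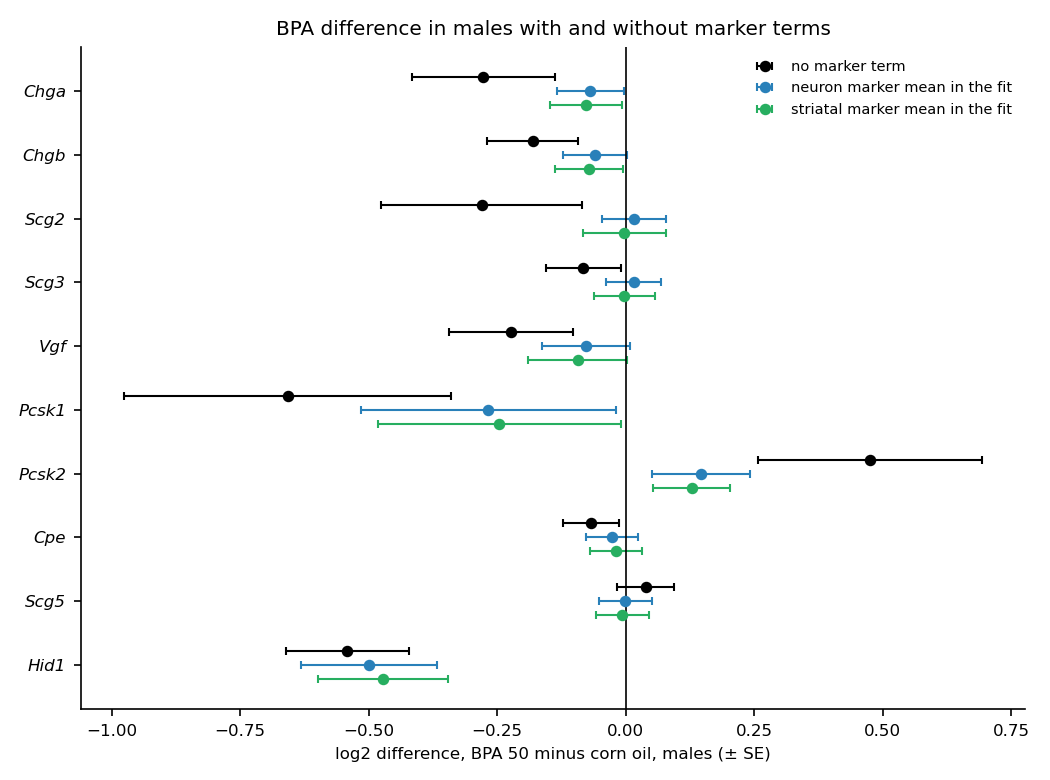
Log2 difference between BPA 50 and corn oil in males for each gene, ± SE, without a marker term and with the neuron or the striatal marker mean in the fit. Hid1 lies at -0.50 and -0.47 with a marker term and -0.54 without, Pcsk2 at 0.15 and 0.13 with a marker term and 0.47 without.

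Esrrg, the gene in the title, was set against each gene as the slope per 1 SD of its log2 CPM with exposure in the model (edgeR, Benjamini-Hochberg over all genes). In males 7 of the 10 members passed in either direction, where 23.1% of all genes did. Pcsk2 rose by 0.33 ± 0.05 per SD (adjusted p = 5.28e-05). The other six were lower with higher Esrrg. Pcsk1 had -0.37 ± 0.10 (adjusted p = 0.00558), Scg2 -0.26 ± 0.05 (0.00119), Chga -0.20 ± 0.03 (8.16e-05), Vgf -0.15 ± 0.04 (0.00202), Chgb -0.13 ± 0.02 (0.00038) and Scg3 -0.08 ± 0.02 (0.0259). Hid1, Scg5 and Cpe did not pass, with -0.04 ± 0.05, 0.04 ± 0.02 and -0.04 ± 0.02. The call of Pcsk1 was lost without oil replicate 4 (slope -0.24, adjusted p = 0.0747), and that of Scg3 without any of 3 other libraries (oil replicate 1, BPA replicate 3, mixture at 50 µg/kg replicate 3; adjusted p up to 0.0716).

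In females 4 of the 10 members passed in either direction, where 8.61% of genes did. Lower with higher Esrrg were Scg2 by -0.16 ± 0.03 (adjusted p = 0.00494), Scg3 by -0.08 ± 0.02 (0.015) and Vgf by -0.11 ± 0.03 (0.0243). Pcsk2 was higher, by 0.17 ± 0.04 (0.00537). All 4 calls were lost without replicate 4 of the mixture at 150 µg/kg, where the slopes were -0.13 for Scg2 (adjusted p = 0.0525), -0.06 for Scg3 (0.151), -0.11 for Vgf (0.0626) and 0.13 for Pcsk2 (0.0522). Leaving that library out also took the genes called in the whole table to 606, against 1580 with it. Scg3 and Vgf were also lost without replicate 5 of either mixture dose, and Vgf without oil replicate 3. With the neuron or the striatal marker mean added to the fit, 0 of the 10 members passed in either sex, and the genes called in the whole table fell to 33 or 13 in females and to 21 or 19 in males, against 1580 and 4259 without a marker term.

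The wider pathway was followed in 4 lists. None of their genes passed in any exposure comparison of either sex. In BPA males the lowest p among 20 further peptide-processing enzymes belonged to Qpct, a glutaminyl cyclase (-0.41 ± 0.13), and Pam, the peptide-amidating enzyme (0.26 ± 0.12), and in BPA females to Rnpep (-0.16 ± 0.09) and Pcsk4 (0.34 ± 0.27). Among 22 genes of vesicle assembly and membrane they were Ptprn, a vesicle membrane protein (-0.19 ± 0.07), and Cyb561, which carries electrons across that membrane (-0.36 ± 0.15), in BPA males and Ica1 (-0.10 ± 0.06) and Rab2b (-0.10 ± 0.07) in BPA females. Among 26 genes of transport and release tested in males they were Sytl4, an effector of Rab27 proteins (-1.35 ± 0.39), and Rab3d (-0.28 ± 0.11). Among the 24 of these tested in females they were Cadps (-0.11 ± 0.06) and Rab3c (-0.12 ± 0.08). Among 24 neuropeptide and related precursors tested in males they were Nppc (-0.73 ± 0.28) and Tac3 (0.49 ± 0.21), and among 23 tested in females Nmu (-0.83 ± 0.34) and Apln (0.30 ± 0.17). List medians in BPA males lay between -0.05 and -0.01, against 0.00 over all genes.

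On the slope with Esrrg in males, 6 of the 20 processing genes passed, with Mme, Pam and Furin higher and Ece1, Pcsk4 and Prep lower. Of the 22 assembly genes, 5 passed, Ptprn2 and Stx6 higher and Resp18, Cyb561 and Ptprn lower. Of the 26 release genes, 13 passed: Sytl5, Syt10 and Syt1 were higher and 10 were lower, from -0.49 for Baiap3 to -0.09 for Vamp2, Kif1a, Rab3a, Rab3b, Rab27b, Rph3a, Stx1a, Syt4 and Cadps2 among them. Of the 24 precursors tested, 13 passed, with Cartpt (0.81 ± 0.16), Tac1, Pdyn, Npy and Penk higher and Adcyap1 (-0.80 ± 0.15), Bdnf, Crh, Gnrh1, Pnoc, Nppc, Trh and Nts lower. Tac1 and Penk are also in the striatal marker list, and Trh and Nts in the preoptic list. Syt1 (0.13 ± 0.02) is also in the neuron list.

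In females the counts on that slope were 4 of 20 processing genes (Furin, Mme and Cpz higher, Qpct lower), 2 of 22 assembly genes (Resp18 and Cyb561, both lower), 5 of 24 tested release genes (Sytl5 and Syt1 higher, Rab3b, Kif1a and Syt4 lower) and 3 of 23 tested precursors (Npy and Penk higher, Pnoc lower). Slopes ran from -0.26 for Rab3b to 0.32 for Cpz. These counts stand beside the 8.61% of all genes that passed in either direction in females and the 23.1% in males.

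For each member the 3 genes with the most alike pattern were found over the 45 libraries among 14679 genes with an assigned symbol, by Pearson's r after group means were removed. Pcsk2 was followed most closely, by Phactr1 (r = 0.97), Kcnab1 and Slit3 (0.96 each). Scg2 went with Nap1l5, Cplx1 and Herc3 (0.94 each), Chga with Cplx1 (0.91), Peg3 and Gabbr1 (0.89 each), and Chgb with Map1a (0.91), Ywhah and Acsbg1 (0.87 each). For Scg3 they were Kif1a (0.86), Faxdc2 and Cd200 (0.85 each), for Vgf Syngr3 (0.82), Flywch1 and Peg3 (0.80 each), for Cpe Saraf (0.75), Eef1b2 and Ubfd1 (0.73 each), for Pcsk1 Ppm1e (0.74), Dnajc6 (0.70) and Abcb10 (0.68), and for Scg5 Lnc012, Cplx2 (0.72 each) and Arf3 (0.70). Hid1 had no close companion: Ninl (0.56), Armc7 (0.55) and Stk3 (0.54) were nearest, and no other member came above r = 0.21 with it.

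Littermates of opposite sex gave a further view, over 21 litters with group means removed. Scg3 had r = 0.60 and rho = 0.59 between sister and brother (permutation p = 0.00682, adjusted over the 10 genes 0.0682) and r = 0.54 without the 2 farthest litters. Vgf had r = 0.48 and rho = 0.49 (p = 0.0494, adjusted 0.247; permutation), and the other 8 ranged from 0.06 for Cpe to 0.40 for Chga. None of the 10 passed. For Hid1 r was 0.23, and -0.06 without the 2 farthest litters.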

How the data were processed

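Rat pups of 8 exposure and sex groups were compared within each sex, with groups taken from the labels. The authors deposited unnormalized counts by gene, females and males apart, in tables marked as having outlying libraries removed. Per the labels' protocols, RNA came from frozen tissue through a kit made for fixed tissue. The submitters' processing notes name cutadapt 1.18, STAR 2.7.3a, SAMtools 1.10, bedtools 2.27.1 and mRatBN7.2. Settings, the annotation, strandedness and duplicate removal were not given in the sources used here. All columns matched a library, and 0 were left over. Library names gave the litter. Dams were assigned as cage pairs, but which litters shared a cage is not stated, so p-values leave that out of account.

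Tests on the counts used edgeR 4.0.16 (R 4.3.3): filterByExpr (minimum count 10, minimum total 15), TMM scaling, robust quasi-likelihood F-tests and Benjamini-Hochberg adjustment over all tested genes at 0.05. The 4 exposures shared 1 fit per sex, and sex was tested over 45 libraries. Correlations used log2 CPM (prior count 2) in Python 3.11.15 with scipy 1.17.1. The tests were checked on simulated data. Alternatives were DESeq2 1.42.0, RLE scaling, no filter, only the groups compared, a prior count of 0.5, marker means as covariates, replicate or litter blocks, and leaving out each library. The members, lists, tests and alternatives were chosen with earlier results of these data known. Marker terms on the Esrrg slope and the fits without 1 litter were chosen after seeing the data.

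Genes named were the 10 members, Esrrg, the 3 nearest genes per member, list genes past the threshold or, with none past it, the 2 with the lowest p, and marker genes beside a marker level. Libraries with the same replicate number in different exposures did not deviate together (mean correlation 0.00 in females and -0.01 in males), so the number was taken as a name and not as a pair. Littermates of opposite sex had a mean correlation of 0.12.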

Additional observations from a re-analysis of the deposited data

Results flagged for a closer look

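In 80 groups (10 genes in 8 groups) the highest and the lowest library were set against the rest by Dixon's test at the 95% level, which by chance flags about 1 group in 20. The test singled out 4. Chgb stood at 195.506 CPM in replicate 4 of the females exposed to 150 µg/kg of the mixture, with the nearest library at 163 CPM. Scg3 stood at 152.048 CPM and Vgf at 85.9343 CPM in the same library, replicate 5 of the females exposed to 50 µg/kg of the mixture, with the nearest at 134 and 64.2 CPM. Pcsk1 stood at 13.0529 CPM in replicate 4 of the oil males, with the nearest at 6.20 CPM.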

How the results depend on the processing

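Of 698 recomputed counts of genes past the threshold, 681 stayed within 1.5 times the reported count. Those that did not were, in females, BPA against oil with only those groups fitted (1 gene, 0 as reported), the mixture at 150 µg/kg against oil with the neuron marker mean as covariate (1, 0 as reported), the licking/grooming slope in DESeq2 (1, 0 as reported) and licking/grooming by exposure without a filter (12) or in DESeq2 (14), 0 as reported. In males they were the mixture at 50 µg/kg against BPA with only those groups fitted (1, 0 as reported) and the licking/grooming slope in DESeq2 (4, 0 as reported). The slope on Esrrg called 33 genes with the neuron and 13 with the striatal marker mean in females (1580 without) and 21 and 19 in males (4259 without). The number of correlations between members that passed, 52 as reported, became 0 with the neuron marker mean removed. It was 47 without the 2 farthest libraries, 44 of them among the 52.

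Leaving out 1 library at a time gave 0 to 1 genes for the mixture at 150 against 50 µg/kg in females, 0 to 7 for licking/grooming by exposure in females, 606 to 2042 for the Esrrg slope in females and 3500 to 4606 in males, 18 to 19 for sex, and 0 to 1 for the difference of the BPA effect between sexes, where the 1 came without BPA male replicate 3.

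Of 5860 recomputed member values, 5758 passed in both fits with the same sign, or passed in neither and moved by less than the SE of the reported value. A change of sign within that SE is counted among them where the reported unadjusted p was not under 0.05. On the slope with Esrrg, marker terms turned the sign of Chgb in females (0.0213 with the neuron and 0.00682 with the striatal mean), Pcsk1 in females (0.0172, striatal), Scg2 in males (0.0266 and 0.00767) and Scg3 in males (0.0321, neuron), and in females DESeq2 called Cpe (-0.04, adjusted p = 0.0381). The fit with the replicate number as a replicate block changed 0 of 260 member calls and moved 0 of 30 counts past 1.5 times: it called 1588 genes for the Esrrg slope in females, 3775 in males and 18 for sex, with 17 for sex under a litter block. With the replicate number as a block, Hid1 in males at 50 µg/kg of the mixture differed from oil by -0.39 ± 0.10.

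Depth limits Pcsk1, with 11 to 63 counts per library. Groups of 5 or 6 libraries, the unknown cage pairs and the removal of libraries before deposit limit all comparisons.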

Other observations

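Hid1 was among the members whose spread beyond counting error lay above the trend for genes of their level. Its biological coefficient of variation in the edgeR fit was 0.20 in females, against a trend of 0.10 for genes of its level, and 0.13 in males, against a trend of 0.11. Pcsk2 had 0.16 in females and 0.25 in males, Scg2 0.15 and 0.22, Chga 0.16 and 0.16, and Vgf 0.11 and 0.13, with trends of 0.10 to 0.11. The highest values were those of Pcsk1, 0.23 and 0.31, against a trend of 0.17 in each sex. The vesicle chaperone Scg5 (0.07 in each sex) and Cpe (0.06 and 0.07) lay below their trends. These values describe each sex and the difference between the sexes was not tested.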
